A study of Saccharomyces cerevisiae with 8 samples.

Results

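The quantity described here is the change in the expression ratio between sub1Δ (a deletion of SUB1) and wild-type Saccharomyces cerevisiae on going from untreated cells to cells that had received 4NQO. Sub1 is the budding yeast counterpart of the human coactivator PC4, a protein that binds single-stranded DNA and works with RNA polymerase II at its promoters. 4NQO (4-nitroquinoline 1-oxide) forms bulky adducts on DNA and also raises oxidative stress in cells, and it is used as a stand-in for ultraviolet damage. Yeast meets such damage by inducing ribonucleotide reductase, which supplies deoxynucleotides for repair, while genes of the ribosome, whose promoters draw a large share of transcription in growing cells, are usually turned down together under stress.

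Wild-type strain yPH500 and its sub1Δ counterpart were grown in YPD medium at 30 °C to OD600 = 1. The untreated samples were taken at that point, at 0 h, and the treated ones 1 h after 4NQO had been added, at 1 µg/µl as the labels write it. All 8 arrays of the series were used: 4 untreated and 4 with 4NQO, and in each condition 2 experiments with a pair of arrays each, in which the dyes were exchanged. On every array one dye carried sub1Δ RNA and the other wild-type RNA of the same condition, so no array set treated against untreated cells of one strain. The deletion is in every ratio, and an untreated sample at 1 h was not analysed here, so 4NQO cannot be told apart from the added hour of growth. SUB1 itself had no spot named for it alone, and the deletion could not be checked in these values.

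Features were kept by completeness alone, a rule chosen with earlier results of these data known. Of 6216 spots, 1640 had a value on all 8 arrays. Averaging spots of the same gene left 1624 features, 917 of them named genes out of 3127 named on the array. Each array was turned to sub1Δ over wild type by its dye label and the arrays of a dye-swap pair were averaged, which gave 1 value per experiment and 2 per condition. A value of 1 on this log2 scale is a 2-fold higher RNA level in sub1Δ and a value of -1 a 2-fold lower one. Spots without a value numbered 266 to 1659 per array on 7 arrays and 3234 on the 4NQO array of experiment 2 that carried sub1Δ in Cy3, the array with the fewest values.

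The experiments differed in how well they resembled each other. Across the 1624 features the Pearson correlation of the pair means was 0.15 between the untreated experiments and 0.54 between the 4NQO experiments, as a description, since features on one array share its hybridisation. Across conditions it was 0.52 and 0.36 for untreated experiment 1 with 4NQO experiments 1 and 2, and 0.17 and 0.10 for untreated experiment 2. The correlation of untreated experiment 1 was thus higher with both 4NQO experiments than with untreated experiment 2. Between dye-swapped arrays of one experiment it was 0.30 and -0.20 for the untreated pairs and 0.41 and 0.40 for the 4NQO pairs, and for the pair at -0.20 the rank correlation was 0.06. The ratios were also spread more widely with 4NQO: the interquartile range of the pair means was 1.22 and 0.87 in the untreated experiments and 1.83 and 2.11 in the 4NQO experiments. The median feature lay at -0.08 and -0.04 untreated and at -0.11 and -0.56 with 4NQO, so that the median difference between conditions was -0.25, and differences are to be read against that shift. With array medians set to 0 it was -0.05, and with print block medians set to 0 it was 0.12. Which strain was higher rests on the dye labels alone.

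With 4NQO many strain differences reached 2-fold that had not done so before. Of those present before, 33 persisted, 22 were reduced and 4 vanished. A difference was counted as present when both experiments of a condition were at least 2-fold from equal in the same direction. Before 4NQO this held for 6 features higher in sub1Δ, 0.369% of those tested, and 53 lower, 3.26%. With 4NQO it held for 202 higher, 12.4%, and 232 lower, 14.3%. A present difference was called arisen when the mean of the untreated experiments was under 0.5 in size, and intermediate before when the untreated mean was at least that large, on either side of 0, without both experiments reaching 2-fold. By this rule 134 features had arisen higher, 8.25% of all, and 69 had arisen lower, 4.25%. A further 68 were higher with 4NQO and intermediate before, 4.19%, and 130 were lower and intermediate before, 8%. In 12 of the 68 and 9 of the 130 the untreated mean was on the other side of 0, so the ratio had changed sides. Only 33 features persisted, all of them lower in sub1Δ in both conditions, 2.03% of all. None persisted higher, none was at least 2-fold on opposite sides in the 2 conditions, and 4 vanished, 3 of them higher and 1 lower before 4NQO. Another 22 were reduced, that is present without 4NQO and short of the rule with it.

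**Figure D1:**
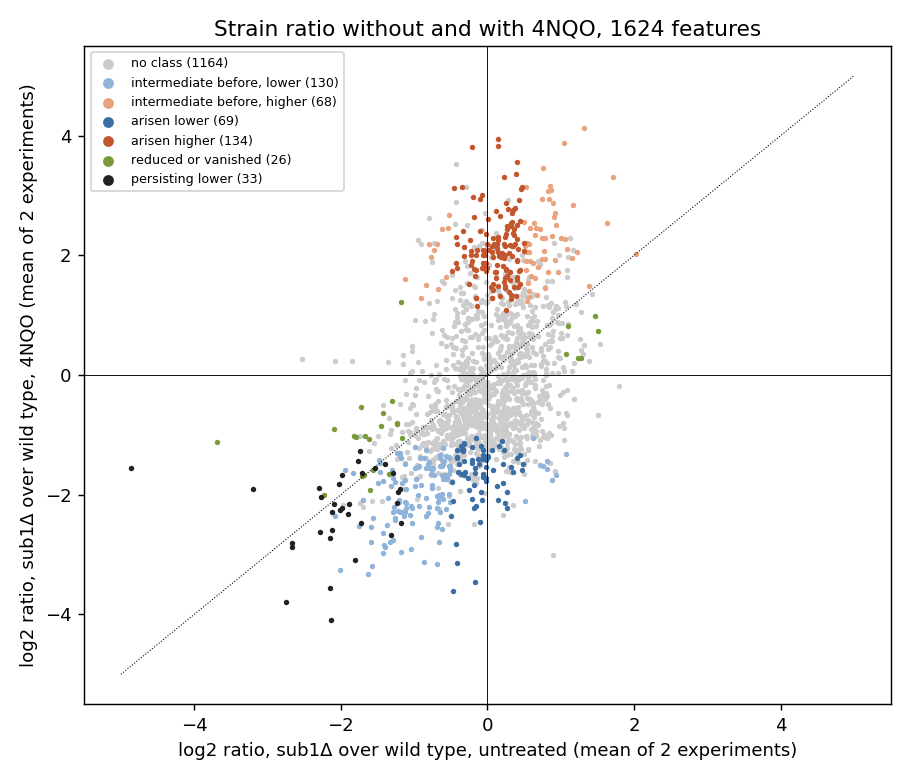
Each point is one of 1624 features, with the mean log2 ratio of sub1Δ over wild type in the 2 untreated experiments on the horizontal axis and in the 2 experiments with 4NQO on the vertical axis, coloured by class. The dotted line marks equal ratios; the 134 arisen higher features stand in a column above 0, and the 33 persisting features lie in the lower left.

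No single feature passed the test of the difference. In limma's moderated fit on the 4 pair means, 0 of 1624 features (0%) had an adjusted p under 0.05 for the difference between conditions, with a lowest adjusted p of 0.52, and before adjustment p was below 0.05 for 150 features, against 81.2 that chance alone would give. The ratio in untreated cells gave 0 calls, and before adjustment p was below 0.05 for 79 features. The ratio in 4NQO-treated cells also gave 0 calls, but its lowest adjusted p was 0.0529 and 538 features were under 0.05 before adjustment. This last count turned on the processing: with each array's median set to 0 limma called 103 features. Treating the 8 arrays as separate values with the pair as a random block, it called 283. The correlation within pairs was then estimated at 0.013, so arrays of 1 experiment counted almost as independent replicates, which they are not. A difference present in one condition and absent in the other is therefore a description of the values here and was not shown by the test of the difference. Leaving out 1 experiment, with the lone one of that condition taken to vary like the pair of the other, left limma calling 0 to 25 features for the difference, the most without 4NQO experiment 2. YPL216W, RPL22A, RPS22A, RPL39 and AHP1 were among those 25, and SEM1 passed without untreated experiment 2. The median standard error of a difference was 0.83, so a 2-fold change was little larger than 1 standard error.

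The centring also decided part of the lower classes. With each array's median set to 0, 173 features had arisen higher, 131 of them among the 134, whereas 36 had arisen lower, 33 of them among the 69. Scaling the arrays to a common spread left 63 arisen higher and 27 arisen lower. Counted by overlap alone, both 4NQO experiments lay above both untreated experiments for 325 features, 20.0%, and below them for 405, 24.9%. With 2 experiments against 2, a lack of overlap is frequent by chance alone. These shares are a background for the gene lists below and do not count real changes.

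Spots were not alike across the slide. For 237 features whose spot identifier ends in 1, 14.6% of all, the median ratio was -0.63 and -0.07 in the untreated experiments and -1.15 and -0.87 with 4NQO. For the other 1387 features these medians were -0.01, -0.03, 0.00 and -0.53. The 237 features held 14 of the 33 persisting lower, 18 of the 69 arisen lower and 51 of the 130 lower and intermediate before, but 9 of the 134 arisen higher. Of their 144 named genes, 128 carry a systematic name of chromosome II, against 9 of 773 named genes elsewhere, so spot position and chromosome cannot be told apart. The 48 print blocks (the first number of the identifier) also differed, with block medians of the difference from -0.99 to 1.07. Where one of these values stands beside a gene below, its part in the result was not tested.

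**Figure D2:**
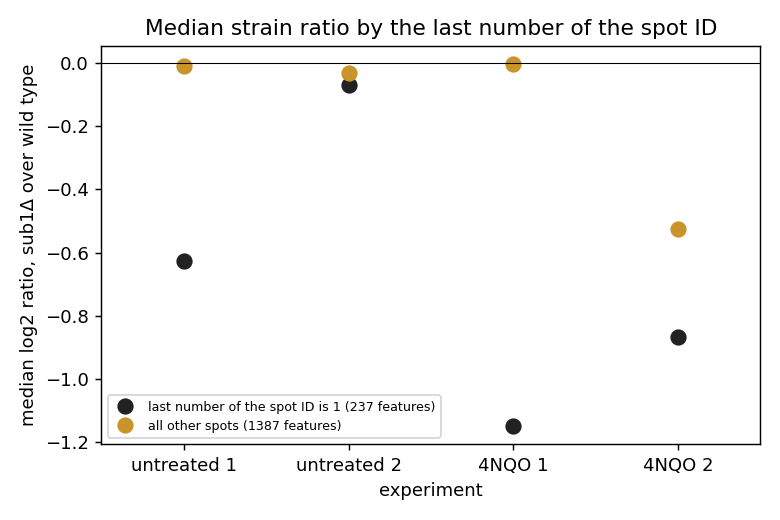
Median log2 ratio of sub1Δ over wild type in each of the 4 experiments, for the 237 features whose spot identifier ends in 1 (black) and for the other 1387 (ochre). The black points lie between -0.07 and -1.15 and the ochre points between 0.00 and -0.53.

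The genes that had arisen higher with the widest gap between conditions were YPL216W, URA5, RPS26A, ACP1, CYB5, RPS19B, TVP38 and FRS1. URA5 encodes orotate phosphoribosyltransferase of pyrimidine synthesis. Its log2 ratio was 0.53, 1.05, -0.54 and -0.44 on the 4 untreated arrays and 3.20, 3.45, 3.20 and 5.48 on the 4 arrays with 4NQO. Every 4NQO array was above every untreated array, although one of them stood 2 units above the rest. The mean went from 0.15 ± 0.91 to 3.83 ± 0.72 (SD, n = 2 experiments), a difference of 3.68 with a standard error of 0.84, or 12.8-fold, and limma's adjusted p was 0.52. URA5 lies in print block 8, whose median difference was 0.78, and with print block medians set to 0 its difference was 2.86. YPL216W, a paralogue of the chromatin remodelling subunit gene ITC1, gave -0.97, -0.78, -0.02 and -0.05 untreated and 2.95, 4.18, 1.65 and 3.70 with 4NQO. All its untreated arrays were below 0 and all its 4NQO arrays above, and the difference was 3.57 with a standard error of 0.80 and an adjusted p of 0.52 by limma.

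ACP1, the acyl carrier protein of mitochondria, gave 0.53, 0.59, 0.03 and 0.23 untreated and 2.91, 2.98, 1.60 and 3.57 with 4NQO. CYB5 encodes cytochrome b5, an electron donor to sterol-modifying enzymes, and stood at 2.36, 2.99, 2.82 and 5.25 on the 4NQO arrays after -0.06, 1.46, 0.51 and -0.34. In both genes the 4NQO arrays all exceeded the untreated ones. TVP38, a membrane protein of the Golgi, went from a mean of 0.02 to 2.09, and FRS1, a subunit of phenylalanyl-tRNA synthetase, from -0.43 to 2.31. CYB5, TVP38, RPS26A, RPS19B and FRS1 lie in print blocks 2 and 3, whose median difference over all features was 0.97 and 1.07. With each print block's median set to 0 on each array, their differences were still 2.33, 1.44, 1.97, 1.69 and 2.20.

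**Figure D3:**
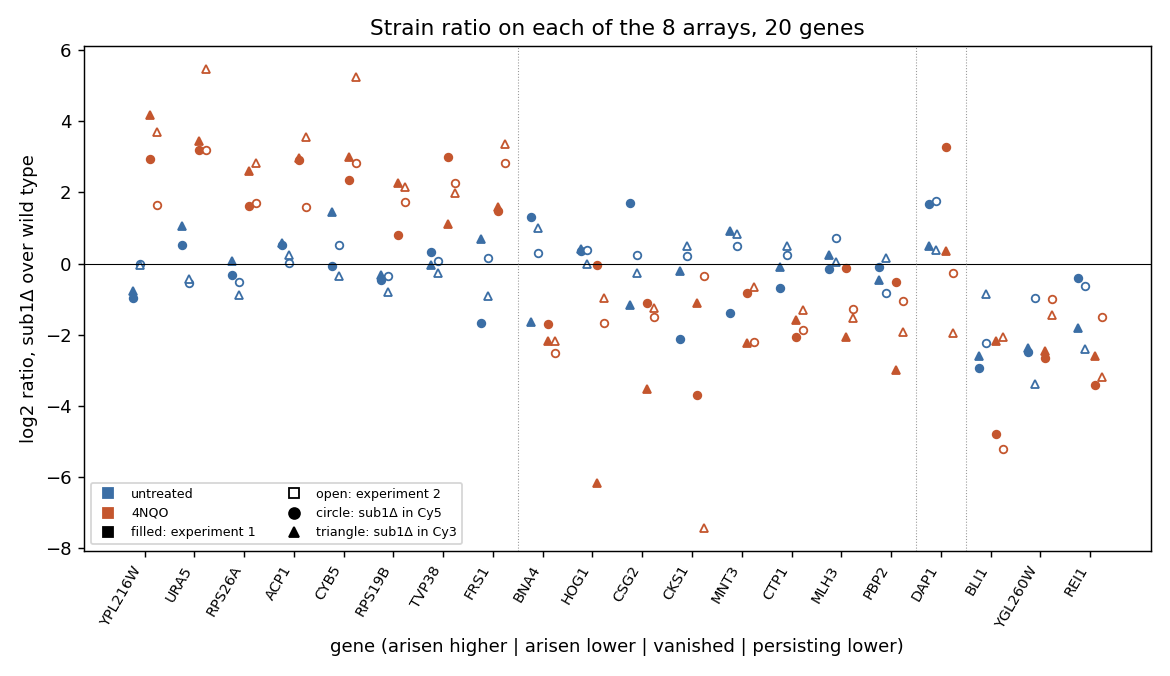
Log2 ratio of sub1Δ over wild type on each of the 8 arrays for 20 genes, untreated in blue and 4NQO in orange, with filled marks for experiment 1, open marks for experiment 2, and circles and triangles for the dye that carried sub1Δ RNA. The first 8 genes lie above 0 on all 4NQO arrays and the next 8 below 0, and single arrays of CKS1 and HOG1 fall below -6.

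Ribosomal protein genes were the largest of the lists in which most measured members were higher with 4NQO than without. Of 49 named on the array, 34 were measured on all 8 arrays, and the other lists below were also measured only in part. Of the 34, 31 had both 4NQO experiments above both untreated experiments and 1 had them below. The 31 are 91.2%, against the 20.0% of all features given above. Their median ratio was -0.11 in untreated cells and 1.86 with 4NQO, and their median difference was 2.16, against -0.25 over all features. By class 18 had arisen higher, where the share of all features was 8.25%. Another 4 were higher with 4NQO and intermediate before, where that share was 4.19%. All 4 had an untreated mean below 0, and the remaining 12 genes fell elsewhere. None passed limma's test for the difference. This group already stood out when it was taken up, so its counts describe these arrays and are no independent evidence. The small subunit supplied 19 of the genes, with a median difference of 2.23, and the large subunit 15, with 1.89.

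RPS22A, which encodes a protein of the small subunit, gave -0.19, 0.15, -0.38 and -0.34 untreated and 1.84, 6.72, 1.23 and 2.11 with 4NQO. All its 4NQO arrays were higher than any untreated array, but the mean of 2.98 ± 1.85 (SD, n = 2 experiments) leaned on the single array at 6.72. RPS26A was steadier: -0.33, 0.06, -0.51 and -0.90 were followed by 1.62, 2.59, 1.71 and 2.83, a difference of 2.61 with a standard error of 0.76. RPL22A, of the large subunit, went from -0.77, -0.68, -0.56 and -1.15 to 3.83, 2.59, 0.91 and 1.45. RPS29B went from -1.0, -0.38, -0.58 and -1.09 to 3.21, 2.36, 0.78 and 1.57. In these 2 genes, as in RPS19B, sub1Δ was below wild type on all 4 untreated arrays and above it on all 4 with 4NQO; limma's adjusted p for the difference was 0.52 for each.

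The experiments did not contribute equally to the group. The median of the 34 ribosomal protein genes was 0.03 and -0.49 in the untreated experiments and 2.23 and 1.41 with 4NQO. Without 4NQO experiment 1 the median difference was 1.38, and without 4NQO experiment 2 it was 2.51. Under array centring, block centring, centring by the last spot number and scaling to a common spread it was 2.36, 2.09, 2.43 and 1.78. Many ribosomal protein genes have a near-identical duplicate, and cDNA of one copy can bind the spot of the other. Members of a duplicate pair such as RPS19B and its twin may therefore not be independent measurements, which was not tested.

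RPS9B and RPL39, named here after their values were seen, differed from the rest. RPS9B, the 1 gene below and spotted at a position ending in 1, was at 2.67, -3.09, 3.23 and 0.44 untreated and at 0.54, -2.85, -1.12 and -2.29 with 4NQO. Its untreated dye-swapped arrays disagreed by more than 2 units in both experiments, so its difference of -2.24 rests on values that did not repeat. RPL39 was lower in sub1Δ on every untreated array, at -1.45, -0.95, -1.15 and -1.16, and with 4NQO was at 3.21 and 3.15 in experiment 1 but at -0.61 and -0.85 in experiment 2. It counts among the 31, since both experiments lay above the untreated ones, but the second stayed on the lower side of 0. In RPL9B and RPL30, the 2 members left, the conditions overlapped, with differences of 0.31 and 0.61.

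**Figure D4:**
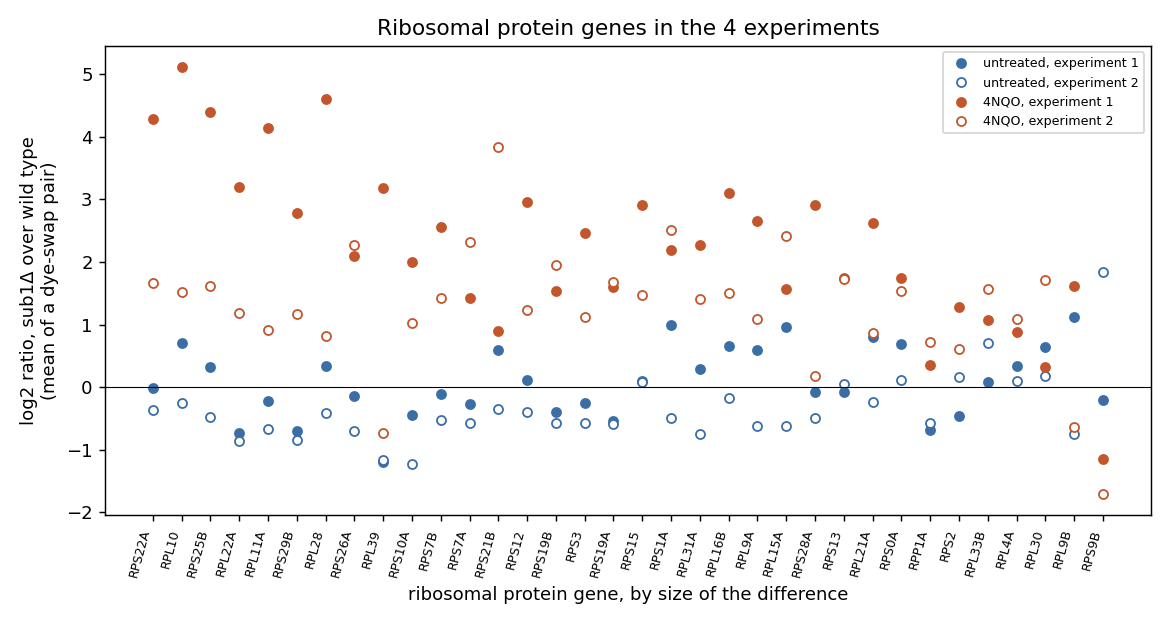
Pair means of the log2 ratio of sub1Δ over wild type for 34 ribosomal protein genes in the untreated (blue) and 4NQO (orange) experiments, with filled marks for experiment 1 and open marks for experiment 2, ordered by the difference between conditions. For 31 genes both orange marks lie above both blue marks, and RPS9B at the right end is the one with both below.

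Other genes of protein synthesis did not all show this. Of 15 translation factors and tRNA synthetases, 5 had both 4NQO experiments above the untreated ones and 1 had them below, which is 33.3% and 6.67% against 20.0% and 24.9% of all features. The median difference was 0.29, and ran from 0.091 without 4NQO experiment 1 to 1.06 without 4NQO experiment 2. SUI1 and TIF11, which encode the initiation factors eIF1 and eIF1A, had mean ratios of 2.17 and 2.26 with 4NQO after 0.31 and 0.14 without. Of 24 ribosome biogenesis genes, 5 lay above and 3 below, 20.8% and 12.5%, with a median difference of -0.21 that turned to 0.12 with print blocks centred. The 14 genes of the mitochondrial ribosome had a median difference of -0.03, or 0.17 with array medians set to 0, with 1 above and 2 below, 7.14% and 14.3%. A test between these groups was not made, since genes of a group share their arrays.

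Proteasome genes were the other large group. Of 31 on the array, 17 were measured. Among these, 13 had both 4NQO experiments above the untreated ones and 1 had them below. That is 76.5% and 5.88% against 20.0% and 24.9% of all features. By class 6 had arisen higher, where the share of all features was 8.25%, and 3 were higher and intermediate before, where it was 4.19%. Of these 3, PRE7 had its untreated mean below 0. Their median ratio was -0.03 untreated and 1.34 with 4NQO, a median difference of 1.53. All 4 core subunits and all 7 regulatory particle subunits measured lay above, with median differences of 2.11 and 1.88. Of the other members, NAS6 also lay above, IRC25 lay below, and in UMP1, NAS2 and POC4 the conditions overlapped. IRC25 had arisen lower and UMP1 was lower and intermediate before, where the shares of all features were 4.25% and 8%. RPN4, the activator of proteasome gene transcription and named here for that role, had pair means of -0.26 and 0.21 untreated and 0.24 and 1.48 with 4NQO, above but short of 2-fold in experiment 1. RPN10, a ubiquitin receptor of the regulatory particle, gave -0.52, -0.07, -0.47 and -0.25 untreated and -0.05, 4.21, 0.84 and 3.54 with 4NQO. Its pair means of 2.08 and 2.19 nearly coincided, whereas the dye-swapped arrays within each pair were more than 2 units apart.

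PRE7 and SCL1 encode core subunits. PRE7 rested at a mean of -0.90 ± 0.22 untreated and 1.29 ± 0.33 with 4NQO (SD, n = 2 experiments), and SCL1 at 0.35 ± 0.54 and 2.37 ± 0.27. RPN5, of the regulatory particle's lid, had 0.23 ± 0.40 and 2.20 ± 0.15. Limma's adjusted p for the difference was 0.52 for each of the 3. SEM1, a small lid subunit named here after its values were seen, had the largest difference of the list, 3.31, but it was lower in sub1Δ in both conditions, with pair means of -7.91 and -1.81 untreated and -1.72 and -1.39 with 4NQO. Without the sparsest array, the proteasome median difference dropped to 0.93, and without 4NQO experiment 2 to 0.91.

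Ergosterol synthesis genes had 14 members on the array, of which 6 were measured. In all 6 both 4NQO experiments exceeded both untreated ones, against 20.0% of all features. Their median ratio was 0.24 untreated and 2.31 with 4NQO, and 4 had arisen higher, where the share of all features was 8.25%. ERG28, a scaffold of the enzyme complex that removes sterol methyl groups, gave 0.22, 0.79, 0.03 and 0.30 untreated and 2.26, 3.38, 1.84 and 2.76 with 4NQO, with no overlap between the arrays of the conditions. It lies in print block 8, whose median difference was 0.78, and its difference of 2.23 was 1.40 with print blocks centred. ERG2, the sterol isomerase, had means of -0.06 and 2.0, and ERG3, the C-5 desaturase, 0.15 and 2.06. CYB5 belongs to this list as well. The median difference was 2.02, and 1.52 after scaling to a common spread.

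Of 13 glycolysis and fermentation genes, 7 had both 4NQO experiments above the untreated ones and 0 below, which is 53.8% and 0% against 20.0% and 24.9% of all features. The median difference was 1.20, and 0.66 without 4NQO experiment 1. TDH2, a glyceraldehyde-3-phosphate dehydrogenase gene, gave 1.65, 5.45, 1.02 and 1.01 with 4NQO, and its paralogue TDH3 gave 0.48, 5.47, 1.02 and 0.81. GPM1, phosphoglycerate mutase, gave 1.02, 5.93, 0.19 and 0.14, and ADH1, alcohol dehydrogenase, 1.86, 4.61, 0.08 and 1.35. In these 4 genes the array of 4NQO experiment 1 with sub1Δ in Cy3 stood more than 2 units above the next one. TDH2 met the rule with a second experiment at 1.02, and TPI1, triose phosphate isomerase, missed it with the nearer experiment at 0.998; on the lower side UBX3 was inside at -1.02 and ALG3 outside at -0.98.

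**Figure D5:**
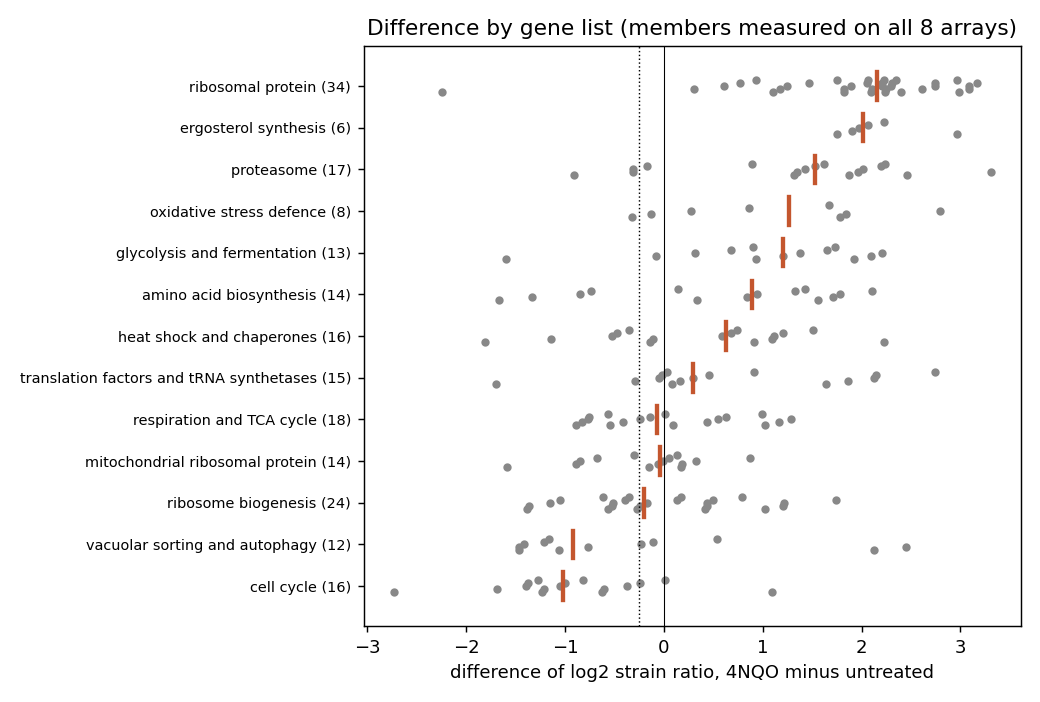
Difference of the log2 strain ratio, 4NQO minus untreated, for the measured members (grey points) of 13 gene lists, with the median of each list as an orange bar and the median of all features, -0.25, as a dotted line. Medians run from 2.16 for ribosomal protein genes to -1.02 for cell cycle genes.

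Of 4 genes of the DNA damage response measured, 2 lay above and 1 below, 50% and 25% against 20.0% and 24.9% of all features. RAD17 was the one below, and in RAD54 the conditions overlapped. Those above were the small subunits of ribonucleotide reductase, RNR2 and RNR4. RNR2 gave 0.59, 0.97, 0.01 and 1.07 untreated and 1.09, 3.71, 1.59 and 3.47 with 4NQO. Its ratio was above 0 on all 8 arrays, on one untreated array by only 0.01. Before 4NQO it fell short of the rule. A higher level in untreated sub1Δ was not shown, since limma's lowest adjusted p for the untreated ratio of any feature was 0.836. The mean went from 0.66 ± 0.17 to 2.46 ± 0.09 (SD, n = 2 experiments), a difference of 1.80 with a standard error of 0.75 and an adjusted p of 0.52 by limma. RNR4 gave -0.27, 3.21, 0.09 and 0.66 untreated and 0.31, 4.78, 2.39 and 3.35 with 4NQO, a difference of 1.79. Both were higher with 4NQO and intermediate before, with the untreated mean above 0. Limma's adjusted p for the ratio under 4NQO was 0.0529 for each, and 0.039 with array medians set to 0, where that for the difference was 0.39 and 0.42. Only 4 of the excision and recombination repair genes were measured. With 4NQO 0 lay above and 2 below, 0% and 50% against 20.0% and 24.9% of all features. MLH3, a mismatch repair protein, had arisen lower, where the share of all features was 4.25%. RAD50, named here after its values were seen, was lower and intermediate before, where the share was 8%. With array medians set to 0 neither kept its class.

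Oxidative stress genes had 8 members measured, of which 5 had both 4NQO experiments above the untreated ones and 1 had them below, which is 62.5% and 12.5% against 20.0% and 24.9% of all features. The median difference was 1.27, and 0.79 without 4NQO experiment 1. MXR1, a methionine sulfoxide reductase, had arisen higher, with pair means of 1.70 and 1.86 after 0.17 and -0.17. It also lies in print block 8, and its difference of 1.78 was 0.96 with print blocks centred. AHP1, a thiol peroxidase, was at 5.12 and 4.18 in 4NQO experiment 1 and at 0.02 and 0.70 in experiment 2, and SOD1, the copper-zinc superoxide dismutase, had pair means of 0.54 and 2.39. The size in AHP1 thus came from one experiment, and in SOD1 mostly from the other.

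Amino acid synthesis genes had 14 members, with 7 above and 1 below, 50% and 7.14% against 20.0% and 24.9% of all features. Their median difference of 0.89 was 0.25 after scaling to a common spread and 1.44 with print blocks centred. PRO2, of proline synthesis, had pair means of 0.66 and 0.79 untreated and 2.62 and 2.25 with 4NQO. MET17, of sulphur amino acid synthesis, had 2.57 and 1.38 with 4NQO, and LEU4, of leucine synthesis, 2.03 and 2.98. Chaperone genes had 16 members, with 6 above and 2 below, 37.5% and 12.5%. Their median difference of 0.63 was 0.059 after scaling and 0.14 without untreated experiment 2. SSB2, a ribosome-bound Hsp70, had pair means of 4.01 and 1.09 with 4NQO. MF(ALPHA)2, a gene for the alpha mating pheromone, had 1.96 and 3.02 after 0.51 and 0.03. Its difference of 2.22 was 1.40 with print blocks centred, and it too lies in block 8.

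On the lower side, the genes that had arisen with the widest gap were BNA4, HOG1, CSG2, CKS1, MNT3, CTP1, MLH3 and PBP2. BNA4, kynurenine 3-monooxygenase of NAD synthesis, gave 1.30, -1.65, 0.30 and 0.99 untreated and -1.70, -2.16, -2.51 and -2.18 with 4NQO. Its 4NQO arrays lay close together and below all untreated arrays, and the difference was -2.38 with a standard error of 0.78. HOG1, the MAP kinase of the osmotic stress response, gave 0.34, 0.40, 0.37 and -0.02 untreated and -0.05, -6.18, -1.66 and -0.96 with 4NQO. CKS1, a subunit of the cyclin-dependent kinase complex, gave -2.13, -0.21, 0.20 and 0.50 untreated and -3.71, -1.11, -0.34 and -7.43 with 4NQO. In these 2 genes a single array supplied most of the difference, and in CKS1 the conditions overlapped.

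CTP1, the citrate carrier of mitochondria, gave -0.70, -0.09, 0.24 and 0.48 untreated and -2.08, -1.59, -1.88 and -1.30 with 4NQO, without overlap. CSG2, which acts in sphingolipid mannosylation, had pair means of -2.32 and -1.39 with 4NQO, MNT3, a mannosyltransferase, -1.52 and -1.44, MLH3 -1.10 and -1.40, and PBP2, an RNA-binding protein, -1.76 and -1.48. BNA4, CSG2, CKS1 and CTP1 are among the features whose spot identifier ends in 1 and carry chromosome II names. With the median of each last spot number set to 0 on each array, their differences were -1.79, -1.40, -2.15 and -1.11. CTP1 and MNT3 lie in print blocks with a median difference of -0.99 and, to 2 decimals, -0.98; with block medians set to 0 their differences were -0.78 and -0.59. Those of MLH3 and PBP2, -1.47 and -1.31, were then -0.84 and -0.87. HOG1, CSG2, MNT3 and MLH3 no longer met the rule once array medians were set to 0.

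Of 44 cell cycle genes on the array, 16 were measured. Among these, 1 had both 4NQO experiments above the untreated ones and 8 had them below. That is 6.25% and 50% against 20.0% and 24.9% of all features. By class 3 had arisen lower and 2 were lower and intermediate before, where the shares of all features were 4.25% and 8%. The median difference was -1.02, but -0.27 with print block medians set to 0, -0.53 after scaling and -0.51 without 4NQO experiment 2. CLB1, a mitotic cyclin, had pair means of 0.20 and -0.22 untreated and -0.75 and -2.03 with 4NQO. CDC13, a telomere-binding protein, had pair means below 0 in every experiment, at -2.78 and -0.47 untreated and at -2.62 and -4.02 with 4NQO. Vacuolar sorting and autophagy genes had 2 above and 6 below among 12, 16.7% and 50%, with a median difference of -0.92 that was -0.29 after block centring and -0.36 after scaling. VPS15, a kinase of vacuolar sorting, and VTI1, a SNARE, went the other way, with means of 2.57 and 2.13 with 4NQO.

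Of the 33 persisting features 12 were named genes, and 3 of these were below 0 on all 8 arrays. BLI1, a subunit of the BLOC-1 complex of endosomes, gave -2.93, -2.59, -2.23 and -0.87 untreated and -4.80, -2.18, -5.21 and -2.06 with 4NQO. REI1, a cytoplasmic maturation factor of the large ribosomal subunit, gave -0.42, -1.82, -0.64 and -2.40 and then -3.41, -2.61, -1.52 and -3.18. YGL260W, an uncharacterised reading frame, gave -2.47, -2.36, -0.96 and -3.38 and then -2.64, -2.45, -0.98 and -1.44. Their differences of -1.41, -1.36 and 0.42 had standard errors of 0.80, 0.77 and 0.81, so the change with 4NQO was not resolved in any of them. REI1 is one of the 6 persisting named genes whose spot identifier ends in 1. Its difference was -0.78 once that position was centred, and 20 features persisted with array medians set to 0. YGL260W was then not among them, having fallen short of the rule with 4NQO, while BLI1 and REI1 were. With print blocks centred the difference of BLI1 was -0.93.

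Among named genes only DAP1 had vanished. Dap1 is a heme-binding protein that helps sterol synthesis. It gave 1.66, 0.50, 1.76 and 0.39 untreated and 3.29, 0.36, -0.28 and -1.96 with 4NQO. The mean of 0.35 with 4NQO came from experiments at 1.82 and -1.12, on opposite sides of equal, and not from 2 values near 0. With array medians set to 0 it no longer met the rule for vanished, and 0 features had vanished from the higher side. Of the reduced genes, HSP12 and SSC1 are named here after their values were seen. HSP12, a small membrane-protecting heat shock protein, had pair means of -2.51 and -1.69 untreated and -1.65 and -0.14 with 4NQO. SSC1, the Hsp70 of the mitochondrial matrix, had 1.76 and 1.18 untreated and 0.23 and 1.75 with 4NQO.

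Of genes often altered in laboratory strains, ADE2 and LYS2 were measured on all arrays. ADE2, of adenine synthesis, was at -0.51 and 1.99 in the untreated experiments and at 0.81 and -1.32 with 4NQO. LYS2, of lysine synthesis, was at -1.37 and -0.13 and then at -2.23 and -0.73. Neither fell in a class, and in both the experiments of a condition differed by more than the conditions did.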

How the data were processed

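The deposited values are log2 ratios of Cy3 over Cy5 per spot of an open reading frame array; per the labels, background was subtracted, and the authors normalised each array by LOWESS with a smoothing parameter of 0.33. The submitters' processing notes name limma 2.12.0. Every value was turned to sub1Δ over wild type by its dye label, spots without a value on all 8 arrays were left out, spots of a gene were averaged, and the arrays of a dye-swap pair were averaged. Deposited fields matched 3344 spots to a single gene symbol, 387 to several and 2485 to none; the latter stayed unnamed.

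The 4 pair means were fitted in R 4.3.3 with limma 3.58.1 (lmFit and eBayes, Benjamini-Hochberg adjustment over 1624 features, threshold 0.05), and the fit was tested on simulated data. With 2 experiments per condition there are 2 residual degrees of freedom. Limma's moderation adds 7.01 prior degrees of freedom, taken from the spread between experiments over all features. Standard errors and p-values therefore reflect mostly that shared spread, and only in part the spread of a gene's own experiments. Intensities and spot flags were not used here, so depth per spot is unknown, and the number of arrays limits the precision.

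The members, classes and gene lists were chosen with earlier results of these data known. Named genes are the 8 arisen in each direction with the widest gap between conditions and one sign on all 4NQO arrays, up to 4 vanished and 5 persisting per direction (persisting with one sign on all 8 arrays), up to 4 members per list of at least 5 measured genes with the smallest p, and ribonucleotide reductase and marker genes. SUB1, SNQ2 and several markers had no complete single-gene spot. Alternatives changed centring, scaling, blocks, averaging, dye turning, missing values, the model, the size limits and the experiments used. Promoter motifs were not searched here.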

Additional observations from a re-analysis of the deposited data

Results flagged for a closer look

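Among the 59 genes with values in the text, 6 had all untreated arrays on one side of 0 and all 4NQO arrays on the other, a pattern that 37 of the 1624 features shared and that was not itself tested. All 6 went from lower to higher in sub1Δ. The differences between conditions were 3.57 for YPL216W, 2.23 for RPS19B, 2.98 for RPL22A, 2.74 for RPS29B and 2.09 for GPM1. The last was 3.19 for SNU13, a protein of the spliceosome and of small nucleolar particles, named after its values were seen.

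In 8 cases a single array stood apart from the other 3 of its condition by Dixon's criterion for 4 values. Chance marks about 1 group in 20, and over all features 209 of 3248 groups were marked. The 4NQO array of experiment 1 with sub1Δ in Cy3 supplied 5 of the 8. It read 6.72 for RPS22A, where the others reached 2.11, 5.45 for TDH2, 5.93 for GPM1, 5.47 for TDH3 and, on the low side, -3.53 for CSG2. The 4NQO array of experiment 2 with sub1Δ in Cy3, which has the fewest values, read 5.48 for URA5 and 4.12 for LEU4. HOG1 read -0.024 on one untreated array against 0.34 to 0.40 on the others.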

How the results depend on the processing

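The 0 calls for the difference held under every other model and scaling run, the fit with a replicate block for same-numbered experiments included (0 calls, lowest adjusted p 0.51), and ranged from 0 to 25 when 1 experiment was left out. Same-numbered experiments deviated together with r = 0.11, over 2 pairs only. The next counts include 2 fits on single arrays, with the pair as a random block and with a dye term. Both took arrays of 1 experiment as separate or almost separate replicates, which they are not. Calls for the 4NQO ratio were 103 with arrays centred, 280 with print blocks centred, 335 with last spot numbers centred, 15 without spots ending in 1, 139 without the sparsest array, 283 with the pair as a random block, 385 with a dye term and 109 to 174 without 1 experiment. The untreated ratio gave 21 calls after scaling and 0 to 4 without 1 experiment.

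Arisen higher features numbered 63 after scaling, 14 if the dye swaps were deposited already turned, 276 with lone arrays allowed (4779 features), 90 to 243 without 1 experiment, 203 at 1.5-fold, 27 at 4-fold and 202 with no limit on the other condition. Arisen lower features numbered 36 with arrays centred, 28 with blocks centred, 27 scaled, 31 already turned, 213 with lone arrays, 19 with last numbers centred, 47 to 319 without 1 experiment, and 176, 3 and 199 under the other sizes and no limit. Persisting lower features numbered 20, 17, 50, 0 and 81 under the first 5 of these settings, 15 with last numbers centred, 19 without spots ending in 1, 39 to 131 without 1 experiment, 100 at 1.5-fold and 1 at 4-fold. Experiments not overlapping numbered 169 above if already turned and 801 with lone arrays, and below 233 with blocks centred, 246 with last numbers centred and 1119 with lone arrays; without 1 experiment they were 489 to 570 above and 603 to 762 below. The causes were not tested, except that fewer samples make non-overlap easier. Centring by last spot number and leaving out its number 1 were chosen after seeing the data.

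The 59 genes kept their sign with arrays centred, lone arrays, the sparsest array left out, the 8-array fits and the replicate block, and the 17 lists did so with lone arrays and without the sparsest array. With arrays centred the median turned for the mitochondrial ribosome (0.17), respiration (0.13) and general stress (0.12), and with blocks centred these were 0.14, 0.32 and 0.16. With last numbers centred they were 0.27, 0.34 and 0.50, without spots ending in 1 respiration was at 0.092 and general stress at 0.45, and after scaling general stress was at 0.20. The sign turned for SSC1 (0.44) and ribosome biogenesis (0.12) with blocks centred, for ribosome biogenesis with last numbers centred (0.12), and for BLI1 (0.00585) after scaling. Without 1 experiment the values ran from -0.19 to 0.16 for ribosome biogenesis, from -0.66 to 0.20 for the mitochondrial ribosome, from -0.40 to 0.44 for respiration, from -0.78 to 0.056 for general stress, from -0.28 to 0.76 for cell wall, from -2.24 to 0.25 for ADE2, from -1.49 to 0.018 for LYS2, from -1.23 to 0.28 for SSC1, from -0.25 to 1.08 for YGL260W and from -2.19 to 0.74 for DAP1.

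If the dye swaps had been turned before deposit, which the labels do not say, a pair mean would hold mostly the dye effect as read here, and 52 of 76 signs turned. The differences would be YPL216W -0.78, URA5 -0.48, RPS26A -0.52, ACP1 -0.44, CYB5 -0.60, RPS19B -0.54, HOG1 1.27, CKS1 1.68, MNT3 0.63, MLH3 0.48, PBP2 0.99, YGL260W -0.51, DAP1 0.52, RPS22A -1.34, RPN10 -1.57, PRE7 -0.65, SCL1 -0.87, RPN5 -0.24, ERG28 -0.30, ERG2 -0.68, ERG3 -1.10, TDH2 -1.05, ADH1 -1.03, GPM1 -1.11, TDH3 -1.19, MXR1 -0.82, SOD1 -0.99, SUI1 -0.48, TIF11 -0.71, PRO2 -1.25, MET17 -0.75, LEU4 -0.75, SSB2 -0.57, CLB1 0.32, VPS15 -0.93, MF(ALPHA)2 -0.38, RNR2 -0.77, RNR4 -0.35, ADE2 0.72, SNU13 -0.18 and SEM1 -2.54. The medians would be -0.49 for ribosomal protein, -0.57 for proteasome, -0.82 for ergosterol, -1.03 for glycolysis, -0.73 for oxidative stress, -0.85 for amino acid, -0.093 for chaperone, 0.090 for cell cycle, 0.042 for ribosome biogenesis, 0.10 for general stress and -0.33 for cell wall genes. The lowest adjusted p for the difference was then 0.91.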

Other observations

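Of 18 genes of respiration and the TCA cycle, 3 had both 4NQO experiments above both untreated ones and 1 had them below, 16.7% and 5.56% against 20.0% and 24.9% of all features. Their median difference was -0.07, and 0.13 with array medians set to 0. Of 15 cell wall genes 4 lay above and 4 below, 26.7% each, and of 9 genes of the general and osmotic stress response 3 lay above and 3 below, 33.3% each. Purine and pyrimidine synthesis, to which URA5 belongs, had 4 of 10 members above, 40%, and none below, with a median difference of 0.60. Of 8 genes of drug efflux and 4NQO export none lay above and 2, 25%, lay below, close to the share of all features, and their median difference of -0.98 was -0.33 with print block medians set to 0.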
